A study of Mus musculus with 4 samples.

Results

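The genes described here are those whose Ser2P ratio, compared between Carm1 KO and control B16F10 cells, stood lower at the gene start and higher at the gene end than for most genes. Members were taken from the genes with a ratio above 0 in both kinds of cell at both the transcription start site (TSS) and the transcription end site (TES). Members were selected on the measured Carm1 KO over control ratio at both ends, which was at most 1.49-fold (0.58 as log2) at the TSS and at least 2.71-fold at the TES. These limits lie 1.5-fold beyond the medians of all compared genes, which were 1.17 at the TSS and 0.85 at the TES on the log2 scale. The rule found 79 of 2775 compared genes (2.85%), out of 3112 genes listed at the TSS and 3030 at the TES. The same Carm1 KO and control values chose the members, so their ratios and changes are given as a description, with no test.

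The study used mNET-seq, which sequences the short nascent RNA held by immunoprecipitated RNA polymerase II (Pol II) after micrococcal nuclease has cut the chromatin. B16F10 is an established mouse melanoma line. The Carm1 KO cells are labelled with a knockout of Carm1 and the control cells are the parental line, labelled WT, and whether the knockout is 1 clone is not given in the sources used here. Each genotype gave 1 library for Pol II phosphorylated at serine 2 of its carboxy-terminal tail (Ser2P) and 1, titled Pol II, for the 8WG16 antibody to that tail. For each of the 4 libraries, 3 sets of cells were digested separately and then pooled, so no spread between replicates exists and no difference between the cells could be tested. The deposited value is a Ser2P ratio with a divisor, window width and scaling between libraries not given in the sources used here. A higher ratio can therefore reflect more Ser2P signal or a smaller divisor, which cannot be told apart. Every direction also rests on the column names and on that scaling. Carm1 itself was not analysed here, and read depth is unknown. Of 10 genes that mark pigment cells, 8 were listed at the TSS and 6 at the TES. The 6 compared were Tyr, Pmel, Mlana, Mlph, Slc24a5 and Mc1r. Tyrp1, Dct, Mitf and Sox10 were not among the compared genes.

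As background, serine 2 of the Pol II tail is phosphorylated by CDK9, the kinase of P-TEFb, and by CDK12 and CDK13 as polymerase leaves the promoter and elongates. The mark builds up towards gene ends, where it helps to bring in factors for cleavage and polyadenylation of the transcript. Carm1, also called PRMT4, places asymmetric dimethyl marks on arginines of histones, transcriptional coactivators and RNA-binding proteins.

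At gene starts the members kept about the ratio of control cells, while most genes had a higher ratio in Carm1 KO cells. The median TSS ratio of the 79 members was 0.102 in Carm1 KO and 0.0983 in control cells. Over all 2775 genes the medians were 0.179 in Carm1 KO and 0.0864 in control cells. At gene ends the members had a median of 4.03 in Carm1 KO and 1.179 in control cells, against 2.96 in Carm1 KO and 1.69 in control cells over all genes. The median member thus had a log2 change of 0.05 at the TSS and 1.66 at the TES, which is a 1.03-fold and a 3.17-fold ratio of Carm1 KO to control. The rule fixes these directions, and the description "shifted toward ends" holds relative to the medians of all genes. As deposited, 37 members had a lower TSS ratio in Carm1 KO than in control cells and 42 a higher one. In 16 members the TSS ratio was at least 1.5-fold lower in Carm1 KO cells, and in the other 63 it was within 1.5-fold of control. Over all compared genes 393 (14.2%) had a lower TSS ratio in Carm1 KO cells.

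**Figure D1:**
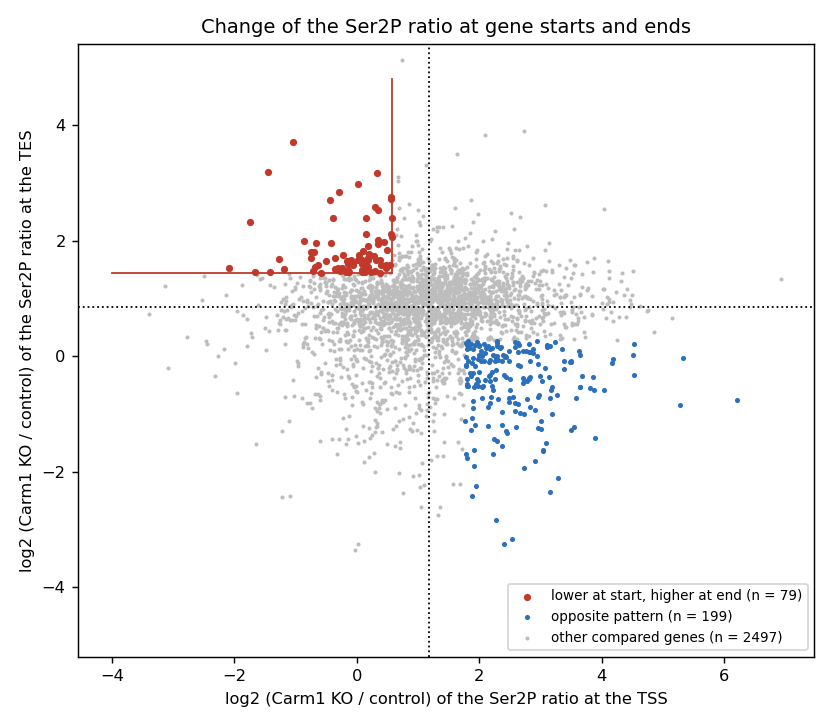
Each point is 1 of 2775 genes, with the log2 change of the Ser2P ratio (Carm1 KO over control) at the TSS on the x axis and at the TES on the y axis; dotted lines mark the medians of all genes (1.17 and 0.85) and red lines the limits of the rule. The 79 members fill the upper left corner, 25 of them within 1.1-fold of the TES limit, and the 199 genes with the opposite pattern lie at the lower right.

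Members lie at the edge of a continuous cloud. The TSS condition was met by 791 genes (28.5%) and the TES condition by 308 genes (11.1%). Members were 25.6% of the genes that met the TES condition and 9.99% of those that met the TSS condition. Across the 2775 genes the changes at both ends had a Pearson correlation of -0.00049 and a Spearman correlation of 0.02. This is a description across genes that share the same libraries. The opposite pattern, with the TSS change at least 1.5-fold above and the TES change at least 1.5-fold below the medians, was met by 199 genes (7.17%). The TES change of 25 members lay within 1.1-fold of the TES limit, and the TSS change of 10 members within 1.1-fold of the TSS limit. Just inside the TES limit were Sap30 at 1.4407, Prdx1 at 1.443 and Fam198b at 1.448, and just outside it Troap at 1.4397, Actr10 at 1.438 and Cand1 at 1.436, all as log2. Just inside the TSS limit were Gm38560 at 0.5796, Astl at 0.57 and BC037704 at 0.56, and just outside it Trak2 at 0.5814, 1700094D03Rik at 0.60 and Ccne2 at 0.62.

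The control ratios of the members differed from those of other genes mainly at the end. In control cells 58 of the 79 members lay below the median TES ratio of all compared genes and 21 above it. The quartiles of the control TES ratio were 0.835 and 1.73 in members, against 1.06 and 3.15 over all genes. When all genes were split into 10 groups of about equal size by control TES ratio, 18 members fell into the lowest group and 2 into the highest. At the TSS, 30 members lay below and 49 above the median control ratio, with quartiles of 0.0675 and 0.159, against 0.0483 and 0.171 over all genes. Only 1 member was in the lowest of the 10 groups by control TSS ratio and 2 were in the highest. In Carm1 KO cells the sides were exchanged, with 65 members below the median TSS ratio and 56 above the median TES ratio. The low control ratio at the end was not particular to the members. The 229 genes that met only the TES condition had a median control TES ratio of 1.14, with quartiles of 0.809 and 1.83. At the start, the 712 genes that met only the TSS condition had a median control ratio of 0.0999. These ratios enter the rule, so the control levels are no independent feature of the members.

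The ratio of TES to TSS within a gene gives the start-to-end difference in each kind of cell. Its median in members was 40.6 in Carm1 KO and 11.8 in control cells. Over all genes it was 15.7 in Carm1 KO and 19.5 in control cells. Members therefore stood below other genes in control cells and above them in Carm1 KO cells. The 199 genes with the opposite pattern had medians of 12.3 in Carm1 KO and 98.4 in control cells, and their control medians were 0.0389 at the TSS and 3.98 at the TES. The 229 genes that met the TES condition without the TSS condition had 11.8 in Carm1 KO and 10.6 in control cells, and the 712 that met the TSS condition without the TES condition had 29.3 in Carm1 KO and 17.3 in control cells. In control cells 1 member, A530013C23Rik, had a TES ratio below its TSS ratio, and in Carm1 KO cells none of the 79 did. Most other genes also had the higher ratio at the end. The lower quartile of TES over TSS across all genes was 5.09 in Carm1 KO and 7.45 in control cells. The rule raises TES over TSS in every member in Carm1 KO cells, so nothing is read from these counts. The difference between the TES and the TSS change, here called the gap, ran from 1.03 to 4.75 in members with a median of 1.74, against a median of -0.40 over all genes. The gap exceeded 2 in 30 members, and its upper quartile over all genes was 0.37. The rule makes the gap positive in every member.

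**Figure D2:**
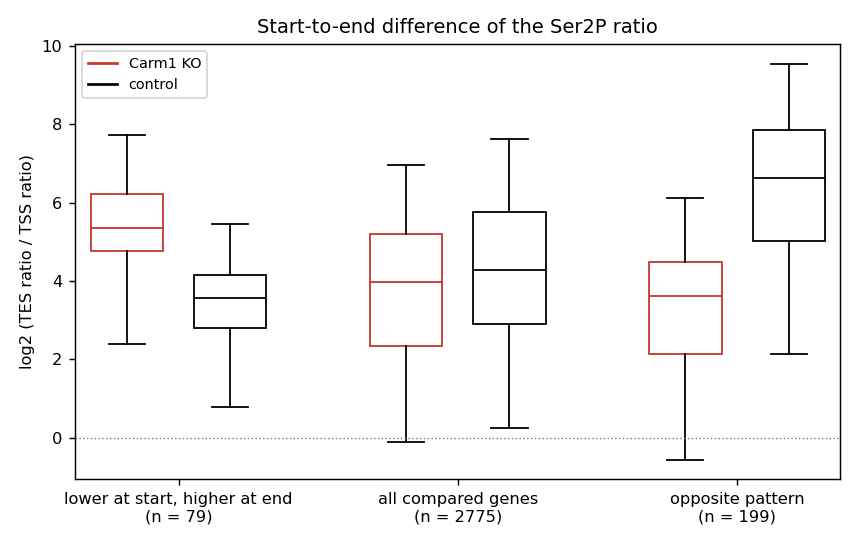
Boxes show log2(TES ratio / TSS ratio) per gene in Carm1 KO (red) and control (black) libraries for the 79 members, all 2775 compared genes and the 199 genes with the opposite pattern; lines are medians, boxes quartiles and whiskers percentiles 5 and 95. Members have the higher median in Carm1 KO cells (40.6 against 11.8 in control cells on the linear scale), and the genes with the opposite pattern have the lower one there (12.3 against 98.4).

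Enzymes and structural proteins of mitochondria numbered 7. Functional classes were formed by hand from the symbols after membership was known. Ears2, the mitochondrial glutamyl-tRNA synthetase, had the second largest gap of all members. Its TSS ratio was 0.0413 in Carm1 KO and 0.113 in control cells and its TES ratio 18.8 in Carm1 KO and 2.06 in control cells, which is a log2 change of -1.45 at the TSS and 3.19 at the TES. Qrsl1 is the catalytic subunit of the amidotransferase that turns the glutamate loaded by Ears2 on mitochondrial glutamine tRNA into glutamine, so both act on the same tRNA. Qrsl1 had a TSS ratio of 0.143 in Carm1 KO and 0.138 in control cells and a TES ratio of 5.82 in Carm1 KO and 1.73 in control cells. The start of Ears2 was thus lower in Carm1 KO cells and that of Qrsl1 about level, while both ends were higher. Mrps10, a protein of the small mitochondrial ribosomal subunit, had 0.134 in Carm1 KO and 0.159 in control cells at the TSS, and 3.72 in Carm1 KO and 1.29 in control cells at the TES. Mrpl13, of the large subunit, had 0.189 in Carm1 KO and 0.152 in control cells at the TSS, and 8.31 in Carm1 KO and 2.63 in control cells at the TES.

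Coq9, a lipid-binding protein needed to make coenzyme Q, had a TSS ratio of 0.134 in Carm1 KO and 0.179 in control cells and a TES ratio of 4.79 in Carm1 KO and 1.23 in control cells. Opa3, a mitochondrial protein known from hereditary optic atrophy, had 0.0926 in Carm1 KO and 0.224 in control cells at the TSS, and 7.11 in Carm1 KO and 2.22 in control cells at the TES. Oat, the matrix enzyme ornithine aminotransferase, had 0.0644 in Carm1 KO and 0.0631 in control cells at the TSS, and 6.29 in Carm1 KO and 1.98 in control cells at the TES. In the 7 genes the TSS change ran from -1.45 to 0.32 and was below 0 in 4, and the TES change ran from 1.53 to 3.19. Their control ratios had medians of 0.152 at the TSS and 1.98 at the TES, both above the medians of all members.

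Promoters of the mitochondrial genes Ears2 and Coq9, whose starts were lower in Carm1 KO cells, are shown because the members' starts stood apart from those of most genes. Each runs 5′ to 3′ on the strand of the gene from 250 bases before to 50 after the RefSeq start (GRCm38.p6), with GGGCGG boxes, which Sp1 and KLF proteins can bind, and CCAAT boxes in capitals on either strand. Ears2 lies on the minus strand at chr7:122067037-122067336 and Coq9 on the plus strand at chr8:94838163-94838462.
Ears2 promoter: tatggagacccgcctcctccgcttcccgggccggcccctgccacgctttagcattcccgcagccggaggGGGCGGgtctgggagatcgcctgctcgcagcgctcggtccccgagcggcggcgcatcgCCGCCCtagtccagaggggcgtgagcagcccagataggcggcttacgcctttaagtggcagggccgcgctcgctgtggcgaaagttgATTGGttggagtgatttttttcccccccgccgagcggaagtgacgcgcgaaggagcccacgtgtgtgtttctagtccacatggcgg
Coq9 promoter: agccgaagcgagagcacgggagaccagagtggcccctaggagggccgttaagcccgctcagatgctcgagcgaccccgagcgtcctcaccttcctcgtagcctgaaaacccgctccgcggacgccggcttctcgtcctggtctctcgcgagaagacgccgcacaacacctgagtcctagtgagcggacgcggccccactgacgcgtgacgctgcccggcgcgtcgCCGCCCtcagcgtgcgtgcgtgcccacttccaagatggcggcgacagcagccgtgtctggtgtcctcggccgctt
The Ears2 window holds 2 GGGCGG boxes, 1 CCAAT box and 33 CpG, and the Coq9 window 1 GGGCGG box, no CCAAT box and 39 CpG.

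Other metabolic enzymes numbered 6. Mttp, which loads triglyceride onto nascent lipoproteins, had a TSS ratio of 0.0447 in Carm1 KO and 0.150 in control cells and a TES ratio of 9.40 in Carm1 KO and 1.88 in control cells. Gk5, of the glycerol kinase family, had 0.0320 in Carm1 KO and 0.0434 in control cells at the TSS, and 3.36 in Carm1 KO and 0.514 in control cells at the TES. Xylb, the xylulose kinase, had 0.340 in Carm1 KO and 0.416 in control cells at the TSS, and 13.1 in Carm1 KO and 1.82 in control cells at the TES. These 3 genes combined a lower start with TES changes of 2.32 to 2.85 on the log2 scale. Mgea5, which removes O-GlcNAc from proteins, Ptgr2, a prostaglandin reductase, and Hddc2, an HD-domain phosphohydrolase, had TSS changes of 0.09, 0.10 and -0.14 and TES changes of 1.59, 1.82 and 1.498.

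Genes of autophagy and membrane traffic numbered 7, and Atg7 among them had the largest gap of all members. Atg7 is the E1-like enzyme that activates ubiquitin-like proteins for autophagosome formation and lies on the plus strand at chr6:114643097-114860614 (GRCm38, GENCODE M21). Its TSS ratio was 0.0235 in Carm1 KO and 0.0485 in control cells and its TES ratio 4.47 in Carm1 KO and 0.343 in control cells. The TES change of 3.71 was the largest among the 79 members, on a low control ratio that 4 other genes also had, among them the predicted 1700003G18Rik. Each of the 4 ratios of Atg7 was exactly that of at least 1 other gene in the same column. Tecpr1, which links autophagosomes to lysosomes, had 0.124 in Carm1 KO and 0.138 in control cells at the TSS, and 3.70 in Carm1 KO and 1.179 in control cells at the TES. Pikfyve, a lipid kinase of endosomes and lysosomes, had 0.0463 in Carm1 KO and 0.0720 in control cells at the TSS, and 13 in Carm1 KO and 4.33 in control cells at the TES. Copz1, a coat subunit of Golgi vesicles, had TSS and TES changes of -0.50 and 1.64. Arfip2, which binds small GTPases at the Golgi, had -0.10 and 1.67, and Odr4, known in worms for receptor delivery to cilia, had 0.31 and 1.48.

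Regulators of transcription numbered 9, and 3 of them had a lower TSS ratio in Carm1 KO cells. Klf10 and Klf11 are related zinc finger repressors induced by TGF-beta. Klf10 had a TSS ratio of 0.0253 in Carm1 KO and 0.0579 in control cells and a TES ratio of 2.83 in Carm1 KO and 0.991 in control cells. Klf11 had 0.105 in Carm1 KO and 0.0982 in control cells at the TSS, and 4.25 in Carm1 KO and 1.34 in control cells at the TES. Their TSS changes of -1.19 and 0.09 were unlike, and their TES changes of 1.51 and 1.66 were close. Sertad1, an inducible SERTA domain protein that binds CDK4, had 0.0150 in Carm1 KO and 0.0399 in control cells at the TSS, and 2.06 in Carm1 KO and 0.751 in control cells at the TES. Crem, a cAMP-responsive factor, had 0.117 in Carm1 KO and 0.0791 in control cells at the TSS, and 3.58 in Carm1 KO and 0.830 in control cells at the TES. Nr1d1, the circadian repressor REV-ERB alpha, had 0.122 in Carm1 KO and 0.0865 in control cells at the TSS, and 3.47 in Carm1 KO and 0.969 in control cells at the TES. The starts of Crem and Nr1d1 were higher in Carm1 KO cells, by less than in the median gene. The other transcription members were Trip4, a subunit of the ASC-1 coactivator, Sap30, of the Sin3 deacetylase complex, and the zinc finger genes Zfp280b and Zfp867, with TES changes of 1.441 to 1.51.

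Proteins that act on RNA numbered 5. Larp7 binds 7SK RNA, which holds P-TEFb, a kinase of the Pol II tail, in an inactive complex. Its TSS ratio was 0.168 in Carm1 KO and 0.151 in control cells and its TES ratio 10.4 in Carm1 KO and 2.41 in control cells. Rnmt, which methylates the cap of mRNA, had 0.102 in Carm1 KO and 0.118 in control cells at the TSS, and 5.30 in Carm1 KO and 1.58 in control cells at the TES. Mettl4, an adenine methyltransferase, had 0.136 in Carm1 KO and 0.142 in control cells at the TSS, and 5.45 in Carm1 KO and 1.83 in control cells at the TES. The TSS changes of these 3 genes ran from -0.22 to 0.15 on the log2 scale and their TES changes from 1.57 to 2.11. Zc3hav1, the zinc finger antiviral protein, and Zfp622, a zinc finger protein of late large ribosomal subunit assembly, had TES changes of 1.47 and 1.70.

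Promoters of Larp7 and Klf11, whose starts were about level between the cells, are shown beside those of Ears2 and Coq9, with the same boxes in capitals. Larp7 lies on the minus strand at chr3:127553300-127553599 and Klf11 on the plus strand at chr12:24651121-24651420 (RefSeq, GRCm38.p6).
Larp7 promoter: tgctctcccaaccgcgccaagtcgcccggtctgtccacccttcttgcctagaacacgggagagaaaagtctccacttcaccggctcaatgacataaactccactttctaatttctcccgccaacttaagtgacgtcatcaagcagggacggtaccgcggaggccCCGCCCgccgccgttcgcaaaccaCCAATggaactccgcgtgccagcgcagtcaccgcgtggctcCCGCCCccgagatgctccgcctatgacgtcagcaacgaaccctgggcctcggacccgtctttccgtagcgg
Klf11 promoter: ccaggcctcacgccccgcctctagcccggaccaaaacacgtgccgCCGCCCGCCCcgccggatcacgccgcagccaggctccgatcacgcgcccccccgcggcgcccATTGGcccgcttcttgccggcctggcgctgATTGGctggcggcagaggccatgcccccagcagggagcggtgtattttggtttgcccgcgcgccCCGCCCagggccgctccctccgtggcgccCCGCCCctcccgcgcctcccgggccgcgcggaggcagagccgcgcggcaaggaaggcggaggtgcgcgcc
The Larp7 window holds 2 GGGCGG boxes, 1 CCAAT box and 30 CpG, and the Klf11 window 4 GGGCGG boxes, of which a pair overlap, 2 CCAAT boxes and 42 CpG.

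Genes of the genome, cell division and the cilium numbered 8, and Hyls1 among them had the lowest TSS change of all members. Hyls1, a centriole protein needed for cilia, had a TSS ratio of 0.0516 in Carm1 KO and 0.220 in control cells and a TES ratio of 2.98 in Carm1 KO and 1.03 in control cells. Cep68, which holds centrosomes together, had 0.0344 in Carm1 KO and 0.0576 in control cells at the TSS, and 6.88 in Carm1 KO and 1.98 in control cells at the TES. Efcab2, a part of the regulatory complex of ciliary dynein, had 0.0347 in Carm1 KO and 0.0452 in control cells at the TSS, and 7.16 in Carm1 KO and 1.37 in control cells at the TES. All 3 had a lower start and a higher end in Carm1 KO cells. Mcm8, a helicase of homologous recombination, had 0.0485 in Carm1 KO and 0.0778 in control cells at the TSS, and 1.68 in Carm1 KO and 0.575 in control cells at the TES. Rad1, of the checkpoint clamp, Ncaph2, of condensin II, Cep55, which acts in abscission, and Mkks, a chaperonin-like protein of the Bardet-Biedl group, had TSS changes from -0.13 to 0.48 and TES changes from 1.46 to 1.66.

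Genes of protein turnover, redox control and cell death numbered 7. Prdx1, a peroxiredoxin, had a TSS ratio of 0.111 in Carm1 KO and 0.167 in control cells and a TES ratio of 3.14 in Carm1 KO and 1.15 in control cells. Ubxn8, an adaptor of the p97 segregase at the endoplasmic reticulum, had 0.112 in Carm1 KO and 0.0875 in control cells at the TSS, and 7.16 in Carm1 KO and 1.23 in control cells at the TES. Prdx1 was lower and Ubxn8 higher at the start in Carm1 KO cells. Txndc9, a thioredoxin-like protein, Trim59, a RING-domain TRIM protein, Rwdd3, which enhances SUMO conjugation, and Rhbdd3, of the rhomboid family, had TSS changes from -0.36 to 0.35 and TES changes from 1.45 to 1.94.

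Signalling, adhesion and secreted proteins numbered 8 and included both members with the highest ends. Amotl1, an angiomotin that binds the Hippo effector YAP, had a TES ratio of 24.2 in Carm1 KO and 8.32 in control cells, with a TSS ratio of 0.0610 in Carm1 KO and 0.0541 in control cells. Dock9, an exchange factor for Cdc42, had 20.1 in Carm1 KO and 7.03 in control cells at the TES, with 0.149 in Carm1 KO and 0.185 in control cells at the TSS. Focad, the gene of focadhesin, was the longest member at 316383 bp and had 8.05 in Carm1 KO and 1.03 in control cells at the TES, with 0.0959 in Carm1 KO and 0.0941 in control cells at the TSS. The TSS changes of these 3 genes ran from -0.31 to 0.17 on the log2 scale. Kazald1, a secreted Kazal-domain protein, had 0.0790 in Carm1 KO and 0.125 in control cells at the TSS, and 1.73 in Carm1 KO and 0.449 in control cells at the TES. Astl, a metalloprotease known from the oocyte, had the highest TSS ratio of the members in Carm1 KO cells, with 0.941 in Carm1 KO and 0.635 in control cells. Krit1, a Rap1 effector at endothelial junctions, Fam198b, a Golgi membrane protein, and Pdzd11, a PDZ-domain protein, had TES changes of 1.60, 1.45 and 1.66.

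Transporters numbered 3, each with a slightly higher start in Carm1 KO cells. Slc24a5, the exchanger of pigment granules and the only member among 15 compared pigment genes, had a TSS ratio of 0.0860 in Carm1 KO and 0.0781 in control cells and a TES ratio of 3.67 in Carm1 KO and 1.34 in control cells. Slc19a2, a thiamine transporter, had 0.0488 in Carm1 KO and 0.0424 in control cells at the TSS, and 8.28 in Carm1 KO and 2.43 in control cells at the TES. In both genes the end differed more between the cells than the start, as the rule requires of any member with a higher start. The remaining named members were the noncoding Rab11fip4os1 and Gt(ROSA)26Sor, with TES changes of 1.59 for each.

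**Figure D3:**
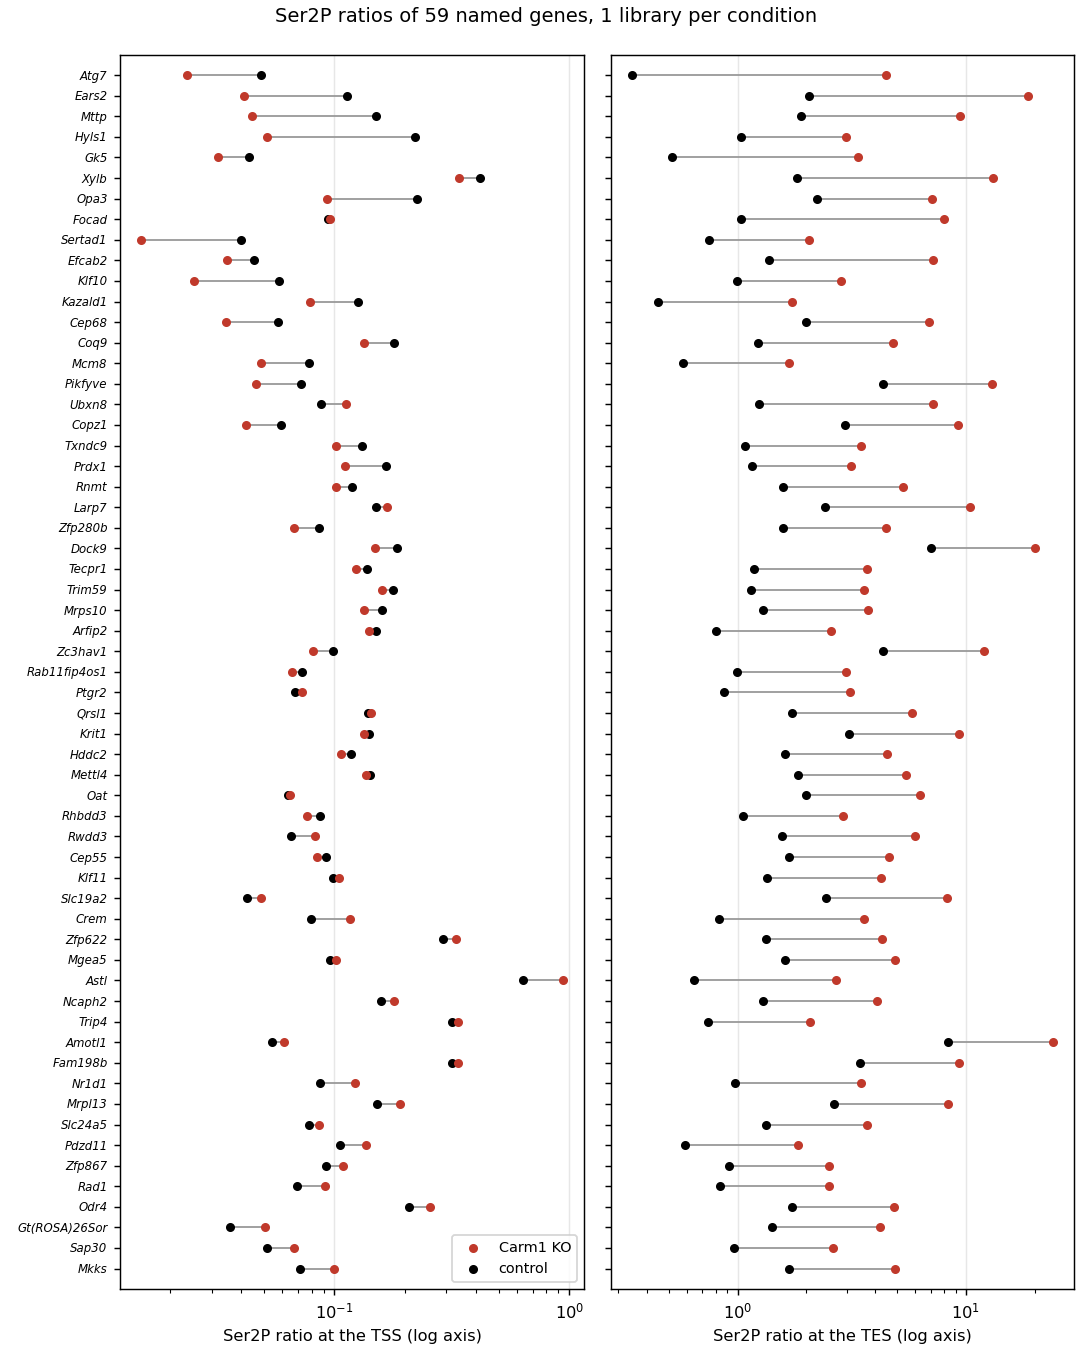
The Ser2P ratio of 59 named members at the TSS (left, log axis) and at the TES (right, log axis), ordered by the gap, with 1 point for the Carm1 KO library (red) and 1 for the control library (black). Every Carm1 KO point lies right of its control point at the TES, as the rule requires, while at the TSS the red points of the upper genes lie left of the black ones and those of most lower genes slightly right.

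The lists of known families gave the members no large block. Of 39 lists, 17 held at least 1 member and 22 none, 32 members were in any list and 47 in none, and no list held more than 5 members. These shares stand beside 2.85% for all compared genes. Mitochondrial dynamics, apoptosis and redox genes held 5 of 44 (11.4%), among them Opa3, Coq9, Txndc9 and Prdx1. Zinc finger genes held 5 of 83 (6.02%), of which Zfp622 is known for ribosome assembly and the others are Klf10, Klf11, Zfp280b and Zfp867. The list of mitochondrial ribosome, import and expression held 3 of 52 (5.77%), inducible regulators 2 of 40 (5.00%) with Klf10 and Sertad1, and solute carriers 2 of 42 (4.76%). Cell cycle genes held 3 of 90 (3.33%), DNA replication and repair 2 of 80 (2.5%), and vesicle traffic 2 of 95 (2.11%). Counts of this size were not tested and nothing particular to a list is read from them.

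Several large gene lists held no member, beside a share of 2.85% over all compared genes. None was among 99 splicing genes, 75 signalling kinases and phosphatases, 68 proteasome and chaperone genes, 65 cytosolic ribosomal proteins, 56 chromatin modifiers, 48 genes of oxidative phosphorylation or 31 histones. The same held for 55 cytoskeleton, 50 ribosome biogenesis, 46 glycolysis and related, and 43 translation factor and tRNA synthetase genes. At the share of all genes even the largest of these lists would hold only a few members, so nothing is read from their absence. The lists are sets of symbols and do not hold every gene of a family. Ears2, a mitochondrial tRNA synthetase, was in the mitochondrial list, and Zfp622, of ribosome assembly, in the zinc finger list. Sap30, of a deacetylase complex, and Mkks, a chaperonin-like protein, were in none of the 39 lists. Ribosomal proteins met the TSS condition in 30 of 65 and the TES condition in none, against 28.5% and 11.1% of all compared genes, with median changes of 0.68 at the TSS and 0.80 at the TES. Among genes close to the study's subject there was also no member in 5 arginine methyltransferases, 19 Carm1 substrates and coactivators and 14 cleavage and polyadenylation genes. Lists of this size would hold less than 1 member at the share of all genes, so nothing is read from these counts. In the last of these lists 5 genes met the TSS condition and none the TES condition, against 28.5% and 11.1% of all genes. The list of Pol II, Mediator, Integrator and elongation genes held 1 of 48, Larp7, with 15 genes meeting the TSS condition and 7 the TES condition, which are close to the shares of all genes.

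Predicted genes made up 17 of 79 members (21.5%), against 199 of 2775 compared genes (7.17%). The class was set by symbol and took in the RIKEN, Gm, BC and similar clone kinds and small RNAs. The members in it were all of the RIKEN, Gm and BC kinds. With GENCODE M21, 76 members and 2747 compared genes were matched, and 14 of the 76 (18.4%) had a noncoding biotype, against 166 of 2747 (6.04%). The predicted members had lower ends than the named ones in both kinds of cell. Their median TES ratio was 2.68 in Carm1 KO and 0.583 in control cells, against 4.48 in Carm1 KO and 1.34 in control cells for the 62 named members. At the TSS their medians were 0.171 in Carm1 KO and 0.114 in control cells, against 0.0976 in Carm1 KO and 0.0970 in control cells for the named members. Only 4 of the 17 had a lower start in Carm1 KO cells. Among genes that met only the TES condition, 13.5% were predicted and 8.41% of those matched were noncoding. The end ratios of predicted members were often exactly those of another gene. This held for 64.7% of predicted and 27.4% of named members in control cells, and for 58.8% and 33.9% in Carm1 KO cells.

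The members were of ordinary length. Their median gene length was 18266 bp with quartiles of 11370 and 30895 bp, against 17905 bp with quartiles of 7026 and 38492 bp over all genes. Lengths ran from 1761 bp in Gm13029 to 316383 bp in Focad. The genes with the opposite pattern were longer, with a median of 52818 bp and quartiles of 28824 and 81274 bp. In 10 groups of all genes by length, the shortest group held 2 members, the fifth 15 and the longest 8, while the longest group held 56 of the genes with the opposite pattern. The largest number of exons in a transcript had a median of 7 in members, 8 over all genes and 12 in the genes with the opposite pattern. Members lay on 18 chromosomes, with 37 on the plus and 39 on the minus strand, and no 2 of them lay within 50 kb of each other.

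**Figure D4:**
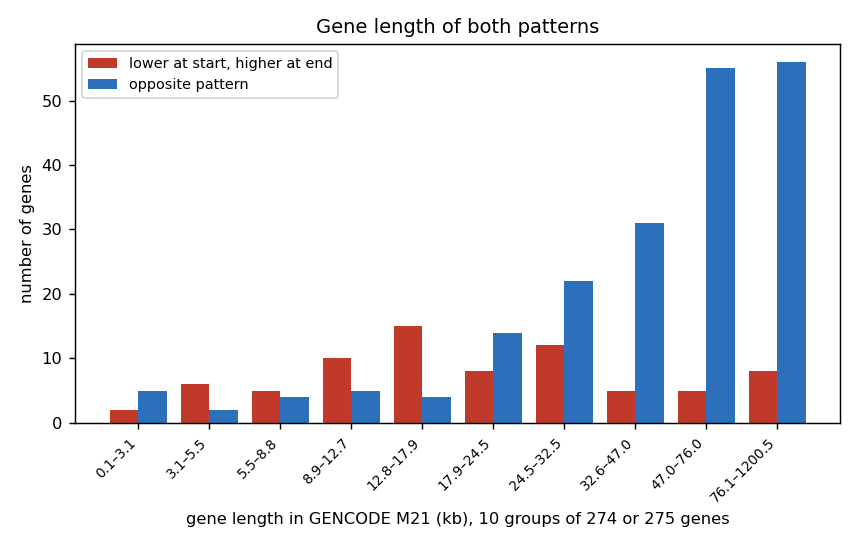
Number of genes (y axis) in 10 groups of compared genes by gene length in kb (x axis, shortest to longest), for members (red) and genes with the opposite pattern (blue). Members peak at 15 in the fifth group and spread over all 10, while the opposite pattern reaches 55 and 56 in the 2 longest groups.

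For 30 of 76 members (39.5%) another gene began within 1 kb on the other strand, against 35.6% of all genes. Of these neighbours 26 were themselves compared, and none was a member. Their median TSS change was 1.21, against 1.17 over all genes, and 21 of the 26 had a higher TSS change than the member beside them. Since the rule selects members for a low TSS change and the neighbours are not selected, most pairs have this order by construction, and nothing is read from it. Only 7 (26.9%) met the TSS condition, against 28.5% of all genes. Ears2 had a TSS change of -1.45 and its neighbour Ubfd1 one of 1.76. Rnmt had -0.22 and its neighbour Fam210a 2.52. Pikfyve and its neighbour Idh1 had -0.64 and -1.01, and 9530062K07Rik and its neighbour Washc2 had -0.86 and -0.62. The neighbours were named because they share a start region with a member, after their values were seen. At the other side, 11 members (14.5%) had a converging gene end within 1 kb, against 14.2% of all genes, among them Atg7 with Vgll4 and Opa3 with Vasp. A gene start on the same strand lay within 1 kb of the end in 3 members (3.95%), against 5.13% of all genes. Taken over both ends, 19 of 76 members (25%) had no other gene within 1 kb of, or spanning, the start or end, against 36.8% of all genes. The share was 26.5% in genes that met only the TES condition and 39.4% in those that met only the TSS condition. Among matched members the share was 29.0% in the 62 named and 7.14% in the 14 predicted ones. Members thus had a close or spanning gene more often than all genes, most of all the predicted ones, and the cause was not tested. The strand setting of the counting is not given in the sources used here, so signal of close neighbours cannot be told apart.

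**Figure D5:**
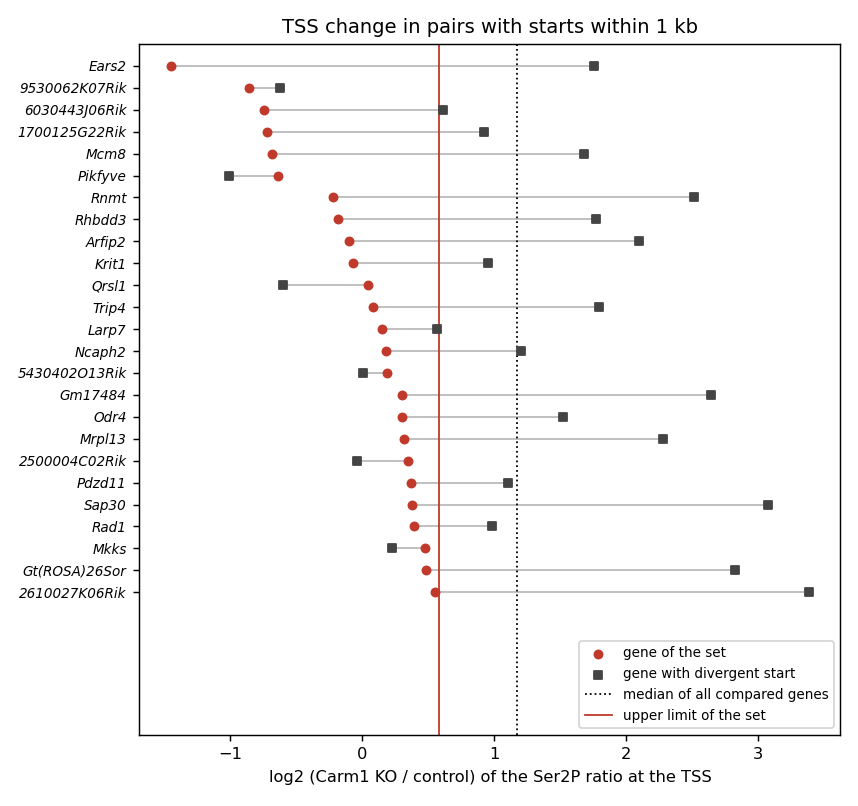
Log2 change of the Ser2P ratio at the TSS (Carm1 KO over control, x axis) for 25 members (red circles) and the compared gene whose start lies within 1 kb on the other strand (black squares), ordered by the member's change. In 20 pairs the neighbour lies right of the member, which the choice of members by a low TSS change favours; the dotted line is the median of all genes (1.17) and the red line the limit 0.58.

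In promoter sequence the members stood close to all compared genes. A RefSeq window within 1 kb of the GENCODE start was found for 54 members and 2104 compared genes. The median GC content was 61.7% and the median number of CpG per window 24 in both. With both strands searched, GGGCGG was in 41 of 54 windows (75.9%, against 70.1% of all), CCAAT in 23 (42.6%, against 41.8%) and GGAAGT, a core that ETS factors can bind, in 17 (31.5%, against 33.8%). CACGTG, the E-box, was in 6 (11.1%, against 13.6%) and TATAAA in 2 (3.70%, against 6.13%). A match says only that the letters are in the window.

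The ends of the members also carried the usual polyadenylation hexamers, which direct cleavage of the transcript. In the last 50 bases of the annotated transcript, AATAAA was found in 45 of 76 members (59.2%, against 61.6% of all), ATTAAA without it in 12 (15.8%, against 15%) and neither in 19 (25%, against 23.4%). The median distance from the hexamer to the transcript end was 24 bases in both. The last 30 bases of 9 members with large gaps or related functions are shown, 5′ to 3′ on the transcript's strand (GENCODE M21, GRCm38), with the hexamer in capitals, because the rule turns on the TES ratio.
Mttp end, chr3:138089854-138089883, minus strand: gatgacaAATAAAcatttataatttactga
Hyls1 end, chr9:35560820-35560849, minus strand: gctaatctATTAAAgaattttggaaaatga
Opa3 end, chr7:19256514-19256543, plus strand: aatgttttataATTAAAggagccccaggtt
Coq9 end, chr8:94854866-94854895, plus strand: ctgtaaaaatAATAAAtatgtttgaaacaa
Qrsl1 end, chr10:43874188-43874217, minus strand: attctatATTAAAatgttctataaacctaa
Mrpl13 end, chr15:55534094-55534123, minus strand: atgttAATAAAatgcttatttggttagcta
Klf10 end, chr15:38291463-38291492, minus strand: aactAATAAAacaacattttatacacatca
Sertad1 end, chr7:27490287-27490316, plus strand: gaaATTAAAaccagctttgggaaataccaa
Larp7 end, chr3:127536714-127536743, minus strand: atttcataAATAAAtgtgttttgaacataa
Hyls1, Opa3, Qrsl1 and Sertad1 carry ATTAAA and the other 5 AATAAA.

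Many member values were coarse, in the sense that another gene had exactly the same ratio in the same column. At least 1 of the 4 ratios was shared in 70 of 79 members (88.6%), against 2101 of 2775 genes (75.7%). The genes with the opposite pattern shared at least 1 ratio in 178 of 199 (89.4%), with 43.2% for the control TES ratio. The share was largest for the TSS ratio in Carm1 KO cells, at 69.6% of members against 54.4% of all genes, and it was 35.4% of members against 37.8% of all genes for the TSS ratio in control cells. At the TES it was 39.2% of members against 24.3% of all genes in Carm1 KO cells, and 35.4% of members against 21.5% in control cells. Hyls1, Focad, 5430402O13Rik and BC025920 had the same control TES ratio of 1.03, Coq9, Mrps10 and Krit1 the same Carm1 KO TSS ratio of 0.134, and Efcab2 and Ubxn8 the same Carm1 KO TES ratio of 7.16. Of the 15 members with the largest gap, 14 shared at least 1 ratio, as did 28 of the 30 with a gap over 2. All 4 ratios were shared in 5 members (6.33%), among them Atg7 and Gk5, against 90 of all compared genes (3.24%). Among the 674 genes that shared no value, 9 (1.34%) were members, against 2.85% of all compared genes. The cause of this difference was not tested. These 9 members were Sertad1, Prdx1, Rnmt, Tecpr1, Mettl4, Oat, Zfp622, 2500004C02Rik and BC031361. Of these, Sertad1 had the largest gap, 2.86, and Prdx1 was the only other with a gap over 2.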

How the data were processed

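Per the labels' protocols, mNET-seq libraries were made from MNase-digested chromatin with RNA fragments of 23 to 123 bp. The submitters' processing notes list TopHat2 2.1.1 and cutadapt 1.18 beside mm10 and GRCm38, without settings. Per the file headers the authors deposited, for each gene at the TSS and at the TES, a Ser2P fraction in Carm1 KO and in control cells and their difference. Some of the deposited values exceed 1, mainly at the TES, so the columns were treated as a linear ratio that the authors made by setting the Ser2P signal against a divisor not given in the sources used here. The difference column equalled Carm1 KO minus control within 1e-09 and was not used. The 2 tables were joined on the gene symbol (3025 in both). A total of 250 genes with a ratio of 0 in any column were left out, and log2(Carm1 KO / control) was computed with no pseudocount. The value columns were assigned to the Ser2P libraries of each genotype by name, and no column was unmapped. The Pol II libraries have no column of their own. With 1 library per group no test was run, depth is unknown and no counting interval was given. The code of the rule was checked on simulated data in which planted and other genes lay on opposite sides of the limits, clear of them. That check says nothing about how reliable the selection is for genes near the limits.

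Symbols were looked up in GENCODE M21 (GRCm38) ignoring case, 8 of them through an older symbol. Of the members, 3 had no match. Promoters are from RefSeq (GRCm38.p6), and ends are from the GENCODE transcripts. A divergent, converging or same-strand neighbour is a gene with a start or end within 1 kb. Genes with no other gene within 1 kb are those where, in addition, no other gene spans the start or the end. The members, the 39 gene lists and the functional classes were chosen with earlier results of these data known. Named are the 15 members with the largest gap, those with the largest change at either end, those in a list, those nearest the limits, those sharing values, and the others by class. Some members are not reported by name here. In all, 7 alternatives were tried. Python 3.11.15, pandas 2.3.3, numpy 2.4.6 and matplotlib 3.10.9 were used.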

Additional observations from a re-analysis of the deposited data

How the results depend on the processing

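The set of 79 genes depended on where the limits stood and on which genes entered. It held 12 genes at 2-fold beyond the medians, with a median length of 37207 bp in place of 18266 bp. It held 238 genes, 37 of them shared with the 79, with no centring (TSS change at most 0 on the log2 scale, TES change at least 1.5-fold). It held 9 of 674 genes when genes with a shared value were left out, and 19 of 1010 genes with no other gene within 1 kb. A pseudocount of 0.01 at the TSS and 0.1 at the TES gave 69 genes (67 shared), a filter on low values 78 and leaving out predicted symbols 62. Of 28 values under alternatives 23 stayed within 1.5-fold. The median control ratio of the members ran from 0.0921 to 0.142 at the TSS and from 1.13 to 1.45 at the TES.

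No paired analysis was possible because each group is 1 pooled library with no replicate numbers, and for the same reason no replicate was left out. The deposited ratios give no read counts, so the precision of single genes is unknown.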

Other observations

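Genes listed at 0 at the TSS in Carm1 KO cells could not enter the set, since no fold can be computed for them. There were 143 genes with a TSS ratio of 0 in Carm1 KO cells and above 0 in control cells, against 58 with the reverse. Of the 143, 21 (14.7%) met the TES condition, against 11.1% of the compared genes, and 3 of the 21 were predicted genes. Their control TSS ratios ran from 0.0123 to 0.514 with a median of 0.0452.

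The 21 genes included Rnf32, a RING finger gene, with a TES ratio of 16.1 in Carm1 KO and 1.03 in control cells and a TES change of 3.97. Minpp1, an inositol phosphate phosphatase, had 15.3 in Carm1 KO and 3.52 in control cells. Isoc2b had 12.6 in Carm1 KO and 2.06 in control cells. Genes with a known role in gene maintenance and RNA were Ctc1, of the telomere-capping CST complex, with a TES change of 1.79, Aplf, of DNA end joining, with 1.66, Exosc4, of the RNA exosome, with 1.57, and Usb1, which trims U6 RNA, with 1.48. Stk11, the kinase LKB1, had 6.33 in Carm1 KO and 2.06 in control cells at the TES, and Wars, the cytosolic tryptophanyl-tRNA synthetase, had 5.603 in Carm1 KO and 2.06 in control cells. Each of these genes was at 0 at the TSS in Carm1 KO cells, with a control TSS ratio of 0.0751 or less except Rnf32, Minpp1 and Usb1. These genes were chosen for naming after their values were seen.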
